A study of Mus musculus with 8 samples.

Results

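Cluster C4 of the mammary epithelium was taken as the cells that the deposited annotation places in C4 and marks as past quality control, in the libraries of the nulliparous mice. It held 971 cells of mouse NP1 and 1212 cells of mouse NP2, together 2183 of the 4223 nulliparous cells and of the 25009 cells of the whole series past quality control. The other stages added few: 40 and 88 C4 cells came from the post-involution mice, 1 from a lactating mouse and none from the pregnant mice, which makes 2312 in all. The study calls C4 the differentiated hormone-sensing cells of the nulliparous gland. Single epithelial cells of C57BL/6N mice were compared over adult development, with 2 mice and 1 library per mouse at 4 stages: nulliparous mice aged 8 weeks (NP), mice at gestation day 14.5 (G), mice at lactation day 6 (L) and mice 11 days past the natural weaning of a litter (PI). Cells were sorted for the epithelial surface protein EpCAM, and cells positive for CD31, CD45 or Ter119 were removed. The labels name no transgene and no treatment. An age is given for the NP mice only. Mice NP1, NP2 and PI2 were in oestrus and PI1 in dioestrus, so that the post-involution pair differed in the phase of the cycle.

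Hormone-sensing cells are the luminal cells of the milk ducts that carry the nuclear receptors for oestrogen and progesterone and the membrane receptor for prolactin. In the textbook account they divide little themselves and pass the hormonal signal on to their neighbours through secreted ligands, among them amphiregulin, Wnt4 and RANKL. The neighbours in the nulliparous gland are the luminal progenitors, which can give rise to the milk-producing lineage, and the basal cells, which contract and lie against the basement membrane.

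C4 was set beside luminal progenitors (C6, 372 and 316 cells), basal cells (C12, 504 and 282 cells) and hormone-sensing progenitors (C2, 265 and 169 cells) of the same mice, in each case with NP1 first. UMIs (unique molecular identifiers, 1 for each captured transcript) were summed over the cells of a cluster in each mouse and scaled to a total of 1000000 (CPM). UMIs tag 1 end of a transcript and are not scaled for length, so levels were compared between clusters for 1 gene and not between genes. A gene was called higher or lower when it differed at least 2-fold in the same direction in both mice, with at least 50 CPM in the higher cluster. The clusters were made from the same counts, so that these ratios are a description and carry no test. C4 summed to 12667669 and 14508146 UMIs. Its median cell held 10163 and 10309 UMIs, 2954 and 2796.5 genes, and a mitochondrial share of 0.789% and 0.914%. The median was 7767.5 and 6597 UMIs in C6, 6046 and 6302.5 in C12, and 16399 and 16877 in C2. No C4 barcode of the nulliparous mice occurred in another library.

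The cells are named for their hormone receptors, which also served to label the cluster, so that their levels describe C4 and do not check its label. *Prlr*, the prolactin receptor, stood at 2277 and 2225 CPM in C4 of NP1 and NP2, against 80.6 and 90.4 CPM in C6 and 198 and 221 CPM in C12. The oestrogen receptor *Esr1* stood at 80.3 and 91.0 CPM in C4, 5.13 and 6.64 CPM in C6 and 10.6 and 12.8 CPM in C12. *Pgr*, the progesterone receptor, stood at 159 and 141 CPM in C4, 5.13 and 2.90 CPM in C6 and 17.6 and 25.2 CPM in C12. Both mice gave the same order for the 3 receptors, with the luminal progenitors lowest, and the C4 values lay above every value of the other clusters. The ratio of C4 to C6 was 28.3 and 24.6 for *Prlr*, 15.6 and 13.7 for *Esr1* and 30.9 and 48.7 for *Pgr*. Over all genes that reached the level filter, 337 of 3242 (10.4%) were called higher in C4 than in C6 and 460 (14.2%) lower, and 452 of 3454 (13.1%) were higher and 767 (22.2%) lower than in C12. The rule that drew the clusters used these same genes, so nothing is read from the counts. Scaling by TMM, which corrects for differences in RNA composition, raised every log2 ratio by 0.10 and 0.16 against C6 and by 0.21 and 0.28 against C12 in NP1 and NP2. It turned the split to 419 higher and 383 lower against C6, and to 629 higher and 555 lower against C12. Medians given for the lists that are smaller than these shifts take their sign from the scaling.

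**Figure D1:**
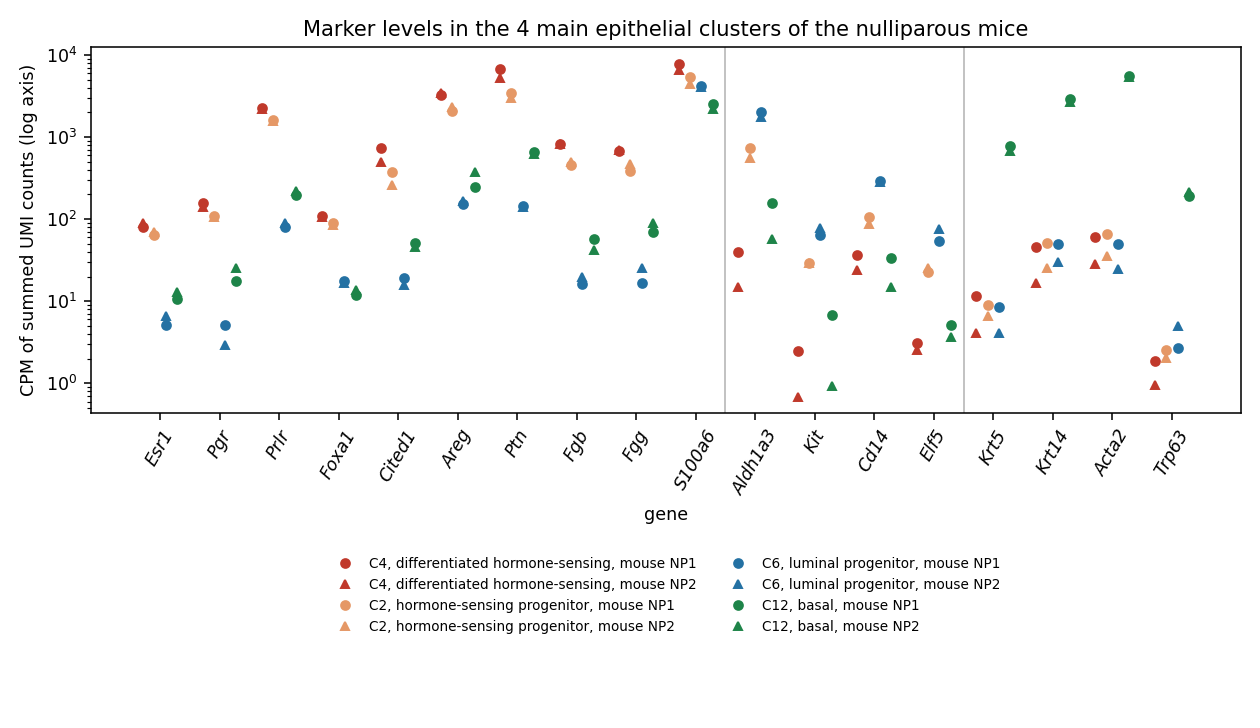
Level of 18 marker genes in C4, C2, C6 and C12 of the nulliparous mice, in CPM of summed UMI counts on a log axis, with circles for mouse NP1 and triangles for NP2. From left to right stand hormone-sensing, luminal progenitor and basal markers, separated by vertical lines, and a cluster with no UMI has no point. In both mice C4 (red) lies above C6 and C12 for the hormone-sensing markers, C6 (blue) lies above the others for the progenitor markers, and C12 (green) lies above the others for the basal markers.

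The remaining hormone receptors did not share this pattern. Of 16 receptors listed, 6 reached the level filter against C6, with *Esr1*, *Pgr* and *Prlr* higher and *Nr3c1* lower, and the median log2 ratio of the 6 was 2.29 beside -0.12 for all genes. Against C12, 7 reached it, with *Thra* higher besides these 3, *Nr3c1* and *Igf1r* lower, and a median of 1.22 beside -0.24. *Nr3c1*, the glucocorticoid receptor, stood at 13.3 and 12.4 CPM in C4, 96.6 and 95.8 CPM in C6 and 88.8 and 66.8 CPM in C12. *Igf1r*, the receptor for insulin-like growth factor, stood at 2.76 and 1.86 CPM in C4 against 50.1 and 47.3 CPM in C6 and 57.1 and 55.8 CPM in C12. C4 was therefore the lowest of the 3 clusters for these 2 receptors in both mice. The second oestrogen receptor, *Esr2*, gave 0.0789 and 0 CPM in C4 and did not reach the level filter.

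Among transcription factors that act with the oestrogen receptor or mark the hormone-sensing lineage, *Foxa1*, *Cited1*, *Msx2* and *Tox2* were higher in C4 than in both neighbours. *Foxa1*, which opens chromatin for the oestrogen receptor, stood at 109 and 106 CPM in C4, 17.5 and 16.6 CPM in C6 and 12 and 13.7 CPM in C12. *Cited1*, a co-activator, stood at 729 and 497 CPM in C4 and was 37.7 and 31.5 times the level of C6 in NP1 and NP2. The homeobox factor *Msx2* stood at 72.0 and 62.4 CPM in C4, 1.81 and 3.32 CPM in C6 and 4.47 and 5.03 CPM in C12. For all 3 the lowest C4 value lay above the highest value of C6 and C12. *Tfap2c* had the opposite order, at 5.68 and 3.65 CPM in C4, 73.3 and 109 CPM in C6 and 194 and 208 CPM in C12. Of 22 lineage factors listed, 15 reached the filter against C6, with 4 higher (*Foxa1*, *Cited1*, *Msx2*, *Tox2*), 2 lower (*Tfap2c*, *Id2*) and a median log2 ratio of 0.54. Against C12, 13 reached it, with 6 higher, 2 lower and a median of 1.04. The study used *Cited1* to label the cluster and drew *Tox2* and *Bhlhe41* from cells of these data as factors of this lineage. The counts of this list therefore describe C4 and do not check its label. *Gata3*, the luminal factor, was not among those called, at 124 and 143 CPM in C4 and 67.6 and 103 CPM in C6. Of 16 receptor partners, 9 reached the filter against C6, with *Foxa1* and *Cited1* higher, none lower and a median of 0.02. Against C12, 11 reached it, with these 2 higher, 3 lower, among them *Pgrmc2* and *Tle3*, and a median of -0.74.

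Secreted ligands had more genes called higher in C4 than any other list, and with 38 genes they were also the longest list. *Areg*, which encodes the epidermal growth factor receptor ligand amphiregulin, stood at 3216 and 3479 CPM in C4, 154 and 168 CPM in C6 and 248 and 377 CPM in C12. *Ptn*, the heparin-binding growth factor pleiotrophin, stood at 6684 and 5269 CPM in C4, 145 and 141 CPM in C6 and 667 and 622 CPM in C12. *Wnt4* stood at 114 and 133 CPM in C4, 19.6 and 8.71 CPM in C6 and 18.8 and 17.4 CPM in C12. All 3 were highest in C4 in both mice, with ratios to C6 of 20.9 and 20.7 for *Areg*, 46.2 and 37.4 for *Ptn* and 5.82 and 15.3 for *Wnt4*. *Wnt5a* (105 and 103 CPM in C4, 3.32 and 4.15 CPM in C6), the chemokine *Cxcl15* (289.7 and 231 CPM and 8.75 and 7.88 CPM), the glycoprotein hormone *Stc2* (137 and 141 CPM and 16.6 and 17.4 CPM) and *Btc*, another ligand of the epidermal growth factor receptor (66.2 and 60.4 CPM and 16.9 and 22.8 CPM), were higher too. Of 38 ligands listed, 13 reached the filter against C6, with 8 higher, 3 lower and a median log2 ratio of 2.58. Against C12, 18 reached it, with 9 higher, 7 lower and a median of 1.19.

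Other ligands belonged to the neighbours. *Wnt5b* stood at 8.68 and 3.79 CPM in C4 and 337 and 289 CPM in C6, and *Tgfb2* at 2.45 and 1.45 CPM and 103 and 100.4 CPM. *Hbegf*, also a ligand of the epidermal growth factor receptor, stood at 150.0 and 118 CPM in C4 against 1269.6 and 747 CPM in C6. The chemokine *Cxcl14* stood at 32.6 and 14.9 CPM in C4 and 3604 and 3874 CPM in C12, and *Nrg1*, a neuregulin, at 1.66 and 0.620 CPM and 147 and 167 CPM. The called ligands were thus divided between the clusters, and each of the 3 clusters held some at its highest level. *Tnfsf11*, which encodes RANKL, was low in C4 at 2.61 and 1.65 CPM. At full depth, which differs between the clusters, it had a UMI in 24 of 971 and 16 of 1212 C4 cells. The counts were 9 of 265 and 3 of 169 cells in C2, and 0 of 504 and 1 of 282 cells in C12. *Calca*, the calcitonin gene, differed between the mice, at 131 and 43.4 CPM in C4 of NP1 and NP2, and stood above C6 (5.43 and 1.66 CPM) and C12 (7.76 and 4.57 CPM) in both. C2 shared it: in cells thinned at random to 3000 UMIs it was counted in 14.3% and 9.47% of C2 cells and 14.5% and 6.44% of C4 cells.

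The receivers of these signals were unevenly spread. *Egfr*, the receptor for amphiregulin, betacellulin and Hbegf, stood at 1.58 and 1.45 CPM in C4, 61.6 and 57.2 CPM in C6 and 51.2 and 43.9 CPM in C12. *Fgfr2*, a fibroblast growth factor receptor, stood at 189.9 and 214 CPM in C4 against 15.1 and 13.7 CPM in C6 and 55.7 and 59.5 CPM in C12. C4 thus held the lowest level of *Egfr* and the highest of *Fgfr2* in both mice. Of 12 growth factor receptors, 6 reached the filter against C6, with *Fgfr2* higher, *Egfr*, *Fgfr1* and *Met* lower and a median log2 ratio of -1.37. Against C12, 3 reached it, with *Erbb3* and *Fgfr2* higher, *Fgfr1* lower and a median of 1.81. Of 18 Wnt and Notch receptors and targets, 3 reached the filter against C6 with *Notch1* lower, and 5 against C12 with *Hes1* higher and *Lrp6*, *Fzd7*, *Jag1* and *Dll1* lower. Their medians were -0.45 and -3.96. *Jag1*, a Notch ligand, stood at 19.2 and 19.1 CPM in C4 and 301 and 295 CPM in C12.

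Downstream of the prolactin receptor, the kinase *Jak2* stood at 55.9 and 57.2 CPM in C4, 24.1 and 22.0 CPM in C6 and 24.0 and 24.7 CPM in C12. The transcription factor *Stat5a* stood at 51.8 and 56.5 CPM in C4, 14.8 and 27.8 CPM in C6 and 20.9 and 26.5 CPM in C12. Both were highest in C4 in both mice. *Cish*, a feedback inhibitor of this pathway, was lower in C4 (9.55 and 9.79 CPM) than in C6 (52.2 and 55.2 CPM), and another, *Socs3*, was higher (389.6 and 373 CPM against 147 and 79.6 CPM). Of 12 genes of the pathway, 10 reached the filter against C6, with 4 higher, 1 lower and a median log2 ratio of 0.72, and 9 against C12, with 3 higher, none lower and a median of -0.06. Of 20 oestrogen and progesterone target genes, 10 reached the filter against each cluster. *Pgr*, *Areg*, *Wnt4* and *Stc2* were higher in C4 than in both. *Ccnd1*, *Myc* and *Igfbp5* were lower than in C6, and *Myc* and *Igfbp5* lower than in C12, with medians of 0.14 and 0.20. *Ccnd1*, the cyclin of the entry into division, stood at 49.7 and 58.0 CPM in C4 and 178 and 214 CPM in C6. *Greb1*, a classic oestrogen target, stood at 7.10 and 10.2 CPM in C4 and at 0 in C6 of both mice, under the level filter.

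**Figure D2:**
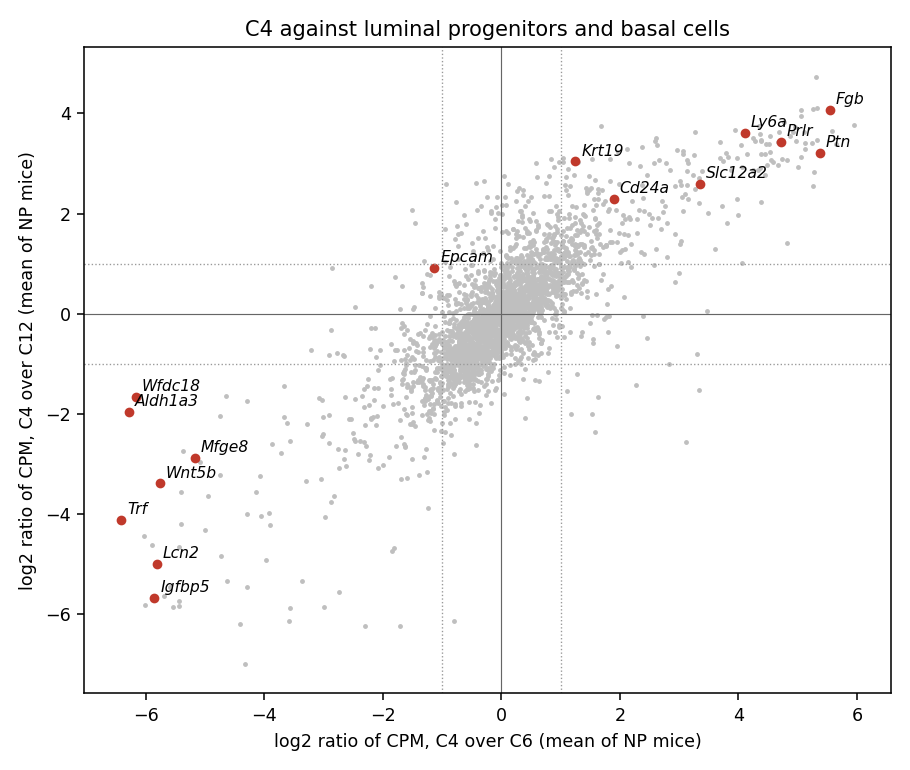
Log2 ratio of CPM of C4 over C6 (horizontal axis) and over C12 (vertical axis), mean of the nulliparous mice, for the 2964 genes at the level filter in both comparisons, with dotted lines at 2-fold. Genes at the upper right are higher in C4 than in both, among them Fgb, Ptn and Prlr, and genes at the lower left are lower than in both, among them Trf, Lcn2 and Igfbp5.

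Fibrinogen chains stood out among the genes high in C4 against C6 and C12, and C2 cells held them too. The clotting protein fibrinogen is built in the liver from 3 chains, whose genes *Fga*, *Fgb* and *Fgg* lie next to each other on chromosome 3. *Fgb* stood at 824 and 823 CPM in C4, 16 and 19.5 CPM in C6 and 57.8 and 42.1 CPM in C12, and *Fgg* at 683 and 691 CPM, 16.9 and 25.3 CPM and 69.6 and 89.2 CPM. In cells thinned at random to 3000 UMIs, *Fgb* was counted in 52.2% and 53.9% of C4 cells and 44.9% and 46.2% of C2 cells. For *Fgg* the shares were 58.3% and 61.2% in C4 and 48.3% and 58.0% in C2. *Fga*, the α chain, gave 0 UMIs in C4 of both mice, where 3 UMIs would be 0.237 and 0.207 CPM, and also 0 in C6 and C12. Transcripts of the β and γ chains were thus counted in C4 without any of the α chain. *Hp*, which encodes the haemoglobin-binding haptoglobin, was higher as well (101 and 114 CPM in C4, 8.15 and 20.3 CPM in C6). Other acute-phase genes were low in C4. *Lcn2*, which encodes an iron-sequestering lipocalin, stood at 84.3 and 42.4 CPM in C4 against 3252 and 3485 CPM in C6 and 2043 and 1809.9 CPM in C12. Of the 16 listed, 7 reached the filter against C6, with *Fgb*, *Fgg* and *Hp* higher, *Lcn2*, *Cp*, *C3* and *Ltf* lower and a median log2 ratio of -4.96. Against C12, 5 reached it, with the same 3 higher, *Lcn2* and *Cp* lower and a median of 3.12.

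Sequence before the start of each fibrinogen gene is shown because *Fgb* and *Fgg* were counted in C4 and their neighbour *Fga* was not, and that of *Areg* because this ligand also differed between the stages. The sequences are from RefSeq on build GRCm38.p6, printed 5′ to 3′ on the strand of the gene, with capitals where a searched motif matched. In this build and the GENCODE vM21 annotation the protein-coding genes span chr3:83026076-83033627 on the plus strand (*Fga*), chr3:83040141-83049863 on the minus strand (*Fgb*), chr3:83007724-83015049 on the plus strand (*Fgg*) and chr5:91139599-91148432 on the plus strand (*Areg*). The stretches printed are the 250 bases before the RefSeq start, cut where the annotated gene begins. They are chr3:83025903-83026075 for *Fga*, chr3:83049864-83050113 for *Fgb*, chr3:83007474-83007723 for *Fgg* and chr5:91139349-91139598 for *Areg*.
Fga: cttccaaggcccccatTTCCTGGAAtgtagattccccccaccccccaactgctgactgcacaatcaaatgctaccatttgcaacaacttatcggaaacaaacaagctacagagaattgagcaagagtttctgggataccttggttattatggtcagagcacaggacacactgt
Fgb: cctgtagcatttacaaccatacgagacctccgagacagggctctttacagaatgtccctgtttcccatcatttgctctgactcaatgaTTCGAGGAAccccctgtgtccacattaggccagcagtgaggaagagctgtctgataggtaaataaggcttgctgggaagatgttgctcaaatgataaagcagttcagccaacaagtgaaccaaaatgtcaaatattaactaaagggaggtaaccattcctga
Fgg: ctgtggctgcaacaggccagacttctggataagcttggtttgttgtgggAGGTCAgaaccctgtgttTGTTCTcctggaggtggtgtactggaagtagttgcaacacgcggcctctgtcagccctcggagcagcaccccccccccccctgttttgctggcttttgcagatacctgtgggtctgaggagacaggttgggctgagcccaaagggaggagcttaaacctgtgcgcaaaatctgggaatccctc
Areg: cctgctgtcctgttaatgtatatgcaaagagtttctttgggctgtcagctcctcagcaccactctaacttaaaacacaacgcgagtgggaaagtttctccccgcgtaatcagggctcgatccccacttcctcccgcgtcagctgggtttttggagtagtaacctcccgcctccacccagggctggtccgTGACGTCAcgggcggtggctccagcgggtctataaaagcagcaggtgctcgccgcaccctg
The 8 motifs were searched on both strands, in windows that reach 250 bases before and 50 bases after the start. The STAT motif TTCNNNGAA matched once in *Fga* and once in *Fgb* and occurs in 8.30% of the 32851 mouse windows. *Fgg* held the oestrogen receptor half-site AGGTCA (16.3% of windows) and the steroid receptor half-site AGAACA (19.0%), the latter on the opposite strand and so read as TGTTCT. *Areg* held the cyclic AMP response element TGACGTCA (1.79%). None of the 4 windows held the HNF1 motif in its full palindromic form (0.00913%), the full oestrogen receptor element (0.0700%), the GATA motif AGATAA (11.2%) or the forkhead motif TGTTTAC (3.65%). The matches did not overlap each other. They describe letters in these windows and not binding.

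Genes of the neighbouring lineages were low in C4. *Aldh1a3*, the retinaldehyde dehydrogenase of luminal progenitors, stood at 39.4 and 15 CPM in C4 and 2035 and 1759 CPM in C6. *Kit*, the stem cell factor receptor, stood at 2.45 and 0.689 CPM in C4 and 63.7 and 78.8 CPM in C6, and *Elf5*, a transcription factor of alveolar cells, at 3.08 and 2.55 CPM and 54.0 and 76.7 CPM. All 16 luminal progenitor genes listed reached the filter against C6 and 15 were lower in C4, with a median log2 ratio of -4.52. Against C12, 7 reached it, with 6 lower, none higher and a median of -2.45. All 15 basal and contractile genes were lower in C4 than in C12, with a median of -6.86, and none reached the filter against C6. The study labelled clusters by genes of these lists, among them *Aldh1a3*, *Kit*, *Cd14*, *Krt5*, *Krt14* and *Acta2*. It also drew *Tspan8*, *Hmga1*, *Fosl1* and *Creb5* from cells of these data as genes tied to luminal differentiation. The counts of both lists therefore describe C4 and do not check its label. *Acta2*, the actin of contractile cells, stood at 61.2 and 28.5 CPM in C4 and 5568 and 5357 CPM in C12, and *Trp63*, which encodes the basal factor p63, at 1.89 and 0.965 CPM and 189.7 and 213 CPM. NP1 had the higher C4 level of *Aldh1a3*, *Kit*, *Acta2* and *Trp63*. The summed level of the 15 basal genes in C4 was 270.1 and 146 CPM, and that of the 16 progenitor genes 486 and 307 CPM.

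Markers of cells outside the epithelium gave few UMIs. The leukocyte marker *Ptprc* stood at 0.158 and 0.345 CPM in C4, the endothelial marker *Pecam1* at 0.553 and 1.52 CPM and the fibroblast collagen *Col1a1* at 1.11 and 2.83 CPM. The summed C4 level was 21.5 and 8.06 CPM for 12 immune markers, 11.4 and 25.6 CPM for 8 fibroblast markers, 26.1 and 30.9 CPM for 8 endothelial markers and 26.4 and 28.3 CPM for 6 pericyte markers. In both mice the endothelial sum was highest in C4, against 23.6 and 23.7 CPM in C2, 3.32 and 8.29 CPM in C6 and 24.4 and 13.7 CPM in C12. The immune, fibroblast and pericyte sums were highest in C12. Of all these markers, *Cd74* and *Dcn* reached the filter against C12 and were lower in C4. Of 8 milk protein genes, *Csn3* reached it against C6, at 13.1 and 9.93 CPM in C4 and 743 and 1413 CPM in C6. No gene of 16 for cell division reached the filter in either comparison.

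C4 carried the luminal keratins. *Krt8* and *Krt18* stood at 5390.0 and 3901 CPM and at 8090.0 and 6696 CPM, between 4.34 and 5.77 times the level of C12 for *Krt18*, and were not called against C6. *Krt19* was higher than in both, at 5143 and 3847 CPM in C4, 2080.5 and 1679 CPM in C6 and 624 and 468 CPM in C12. Of the 4 luminal keratins 2 were higher in C4 than in C6 (median log2 ratio 0.49) and all 4 higher than in C12 (median 2.68). Surface proteins used to sort luminal cells divided C4 from C6. *Ly6a*, which encodes Sca-1, stood at 909 and 724 CPM in C4, 49.2 and 45.2 CPM in C6 and 80.4 and 54.4 CPM in C12, and *Prom1*, which encodes CD133, at 83.0 and 70.0 CPM, 4.53 and 6.64 CPM and 8.70 and 7.78 CPM. *Cd24a* and *Ly6d* were higher as well, while *Itga2*, *Kit*, *Cd55* and *Cd14* were lower than in C6, so that 8 of the 11 sorting markers at the filter were called, in both directions (median -0.01). Against C12 the first 4 were higher and none of 7 lower (median 2.29). *Epcam*, the protein of the sort, stood at 2860 and 2117 CPM in C4, 5524 and 5249.7 CPM in C6 and 1526 and 1109.9 CPM in C12.

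Ion and water transport genes included 2 that were higher in C4 than in both neighbours. *Slc12a2*, the cotransporter of sodium, potassium and chloride, stood at 1139.5 and 1247 CPM in C4, 119 and 114 CPM in C6 and 204 and 193 CPM in C12. The water channel *Aqp5* stood at 250.5 and 159.6 CPM, 67.3 and 71.3 CPM and 32.0 and 17.4 CPM. Of 13 listed, 6 reached the filter in each comparison, with these 2 higher than in C6 (median log2 ratio 0.10), and with *Atp1b1* higher as well and *Aqp3* lower than in C12 (median 1.36). Of 15 steroid and retinoid genes measured, 3 were lower than in C6, among them *Aldh1a3* and *Crabp2* (7 at the filter, median -0.58), and *Rdh10* was higher and 2, among them *Aldh1a3*, lower than in C12 (6 at the filter, median -0.29). *S100a6*, which encodes a calcium-binding protein, stood at 7769 and 6578 CPM in C4, 4165 and 4052 CPM in C6 and 2526 and 2221 CPM in C12. It was called against C12 and not against C6, where it stood 1.87 and 1.62 times higher. Of 12 S100 and calcium genes, 7 reached the filter in each comparison, with 1 lower in both and medians of 0.27 and 0.30. Of 11 junction genes, *Cldn1* was lower than in C6 (9 at the filter, median -0.29), and *Cldn3*, *Cldn4* and *Cldn7* were higher and *Cdh3* lower than in C12 (8 at the filter, median 0.76).

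Genes that respond to tissue dissociation were expressed in all 3 clusters. *Fos* stood at 1982 and 2076 CPM in C4, 2442 and 1841 CPM in C6 and 560.3 and 449 CPM in C12, and *Atf3*, a stress-response factor, at 1071 and 684 CPM, 435 and 187 CPM and 179 and 100.2 CPM. Of 17 immediate early and heat shock genes, 14 reached the filter against C6, with *Atf3* higher, *Egr1* and *Ier3* lower and a median log2 ratio of -0.58. Against C12, 13 reached it, with *Fos*, *Fosb*, *Jun*, *Jund* and *Atf3* higher, *Hsp90aa1* lower and a median of 0.79. Of 11 cell cycle inhibitors, 3 reached it, with none called against C6 (median 0.19), and *Btg1* and *Btg2*, which restrain division, higher than in C12 (median 1.60). The part of dissociation in these ratios was not tested. With TMM scaling the counts higher and lower became 6 and 2 for lineage factors, 5 and 1 for the prolactin pathway, 4 and 2 for hormone targets and 0 and 0 for Wnt and Notch genes against C6. Against C12 they became 7 and 1 for lineage factors, 2 and 2 for receptor partners, 10 and 7 for ligands, 0 and 5 for progenitor genes, 0 and 14 for basal genes and 5 and 0 for sorting markers. There they also became 5 and 0 for immediate early genes, 2 and 1 for S100 genes, 4 and 1 for channels and 5 and 1 for junction genes, and in the other lists they did not change.

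The 10 genes with the largest ratios of C4 over C6, ordered by the mouse with the smaller ratio, were *Fgb*, *Slc35f3*, *Ptn*, *Fam25c*, *Gm17416*, *Tspan1*, *Ido1*, *Cited1*, *Sbp* and *Cdo1*. *Fgb* was higher by 51.5-fold (39.4 to 68.8) in NP1 and 42.2-fold (31.7 to 57.5) in NP2, where the brackets give exact 95% intervals for counting error. *Slc35f3*, a member of a solute carrier family, had 3 UMIs in C6 of NP1 and 0 in C6 of NP2, with a ratio of 55.5 (18.9 to 270.0) in NP1, and it was at least 40.9-fold higher in NP2 when 3 UMIs are set for the 0. Genes with the largest ratios the other way were *Car2*, *Trf*, *Slc5a7*, *Csn3*, *Ntng1*, *Aldh1a3*, *3110079O15Rik*, *Fcgbp*, *Wfdc18* and *Gpc6*. *Car2*, a carbonic anhydrase, was lower in C4 by 105-fold (72.9 to 159) in NP1 and 159-fold (105 to 253) in NP2, and *Trf*, which encodes the iron carrier transferrin, by 59.6-fold (52.4 to 68.0) in NP1 and 122-fold (103 to 146) in NP2. For all 10 genes the C4 level was higher and the ratio smaller in NP1 than in NP2. In the C6 cells, genes higher in C4 had a median of 27.4% and 28.7% of their C4 level, and 46 and 43 of the 337 lay under 5%.

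Against basal cells the 10 largest ratios belonged to *Ido1*, *Fgb*, *Snhg11*, *Col8a1*, *Msx2*, *Slc35f3*, *Btc*, *Cxcl17*, *AW112010* and *Gm17416*. *Ido1*, which encodes the tryptophan-degrading enzyme indoleamine 2,3-dioxygenase, was higher by 20.0-fold (14.3 to 28.8) in NP1 and 14.8-fold (8.77 to 27.1) in NP2. *Gm17416* counted 2 UMIs in C12 of NP2, with a ratio of 59.0 (16.3 to 488) there against 12 (8.57 to 17.3) in NP1. Lower in C4 by the largest ratios were *Ccnd2*, *Speer4e*, *Myh11*, *Tagln*, *Lmod1*, *Wnt10a*, *Fst*, *Maf*, *Gas1* and *Aebp1*. *Ccnd2*, a D-type cyclin, stood at 0.868 and 0.758 CPM in C4 and 176 and 171 CPM in C12, and *Fst*, which encodes the activin antagonist follistatin, at 11.4 and 5.38 CPM and 1658 and 1768 CPM. Smooth muscle genes (*Myh11*, *Tagln*, *Lmod1*) made up part of this set. *Speer4e*, whose family of near-identical copies makes its counts uncertain, had 4 and 1 UMIs in C4, with ratios of 202 (78.2 to 748) and 1115 (197 to 44303).

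Of the genes higher in C4 than in its neighbours, few were also well above the hormone-sensing progenitors of C2. Only *Ido1* and *Upk3a* were at least 2-fold higher in C4 than in each of C2, C6 and C12 in both mice, 2 of 2542 genes (0.0787%). *Ido1* stood at 164 and 94.6 CPM in C4, 70.4 and 38.7 CPM in C2, 3.32 and 2.90 CPM in C6 and 8.23 and 6.40 CPM in C12. *Upk3a*, which encodes a uroplakin of the bladder lining, stood at 68.9 and 97.9 CPM in C4, 29.6 and 12.4 CPM in C2, 1.51 and 10.8 CPM in C6 and 13.6 and 2.74 CPM in C12. NP1 was higher for *Ido1* and NP2 for *Upk3a*, and for both genes the lower C4 value lay above every value of the other clusters. The next largest ratios over the nearest cluster were those of *Cited1*, *Wfdc2*, *Gm17416*, *Ly6a*, *Arg2*, *Iigp1*, *Ptn*, *Sbp*, *AW112010*, *Col8a1*, *Nupr1*, *Cxcl17* and *Sprr1a*. *Cited1* stood at 729 and 497 CPM in C4 and 376 and 258 CPM in C2. The count of 2 rests on the 2-fold limit. It was 4 with TMM scaling (adding *Cited1* and *Gm17416*), 4 in cells thinned to 3000 UMIs (adding *Arg2* and *Sprr1a*), and 4 without cells of over 2 times the median UMI count of their cluster and mouse (*Gm17416*, *Ido1*, *Ly6a* and *Sbp*).

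C2 lay between C4 and C6 for most of the genes called between these clusters. Of the 797 genes called between C4 and C6, 786 had a C2 level between the other 2 in both mice. These genes were picked because C4 and C6 lie far apart, which favours a C2 level between them. Genes that were not called were not counted. On the CPM scale C2 stood 64.5% of the way from C6 to C4 in NP1 (quartiles 57.4 and 70.8%) and 66.3% in NP2 (59.0 and 73.0%). Its median UMI count was 91.5% and 99.8% of the summed medians of C4 and C6. Whether C2 barcodes hold a pair of cells was not tested. *Aldh1a3* shows the pattern, at 39.4 and 15 CPM in C4, 737 and 552 CPM in C2 and 2035 and 1759 CPM in C6, and so does *Prlr* at 2277 and 2225 CPM, 1602 and 1578 CPM and 80.6 and 90.4 CPM.

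The genes whose levels most resembled those of the receptors were sought by the correlation of log2(CPM + 1) over 19 sums of epithelial cluster and mouse with 20 cells or more in the NP and PI mice, among 8202 genes. The sums share mice and clusters, so the coefficients are a description. *Pgr* was most like *Enho*, which encodes the peptide hormone adropin (r = 0.991), then *Tspan1*, *Fam43a*, *Tapt1* and *Gpx3* (r = 0.973 for the last). *Prlr* was most like *Rab27b*, a small GTPase of secretory vesicles (r = 0.991), then *Kank3*, *Cib2*, *Wbp1* and *Cited1* (0.960). *Esr1* was most like *Kank3* (0.960), *Prlr*, *Dedd2*, *Ndufa7* and *Rab27b*, so that *Kank3* and *Rab27b* stood in the lists of both. *Areg* was most like *Plcb4*, a phospholipase (0.973), *Dmbt1*, *Sfxn1*, *Rasgrf1* and *Plac8*. *Enho* stood at 93.5 and 93.5 CPM in C4 against 4.22 and 3.73 CPM in C6 and 10.3 and 11.9 CPM in C12.

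Single cells were compared after each was thinned to 3000 UMIs, so that depth did not differ between clusters, and no cell was shallower. *Prlr* had a UMI in 98.2% (97.2 to 99.0%) of the cells of NP1 and 98.3% (97.5 to 99.0%) of those of NP2, where the brackets are exact 95% Clopper-Pearson intervals. In basal cells, taken as the cluster that should lack the receptor, the share was 17.5% and 17.4%, and in C6 19.1% and 23.1%. *Esr1* had a UMI in 22.1% (19.6 to 24.9%) of the cells of NP1 and 25.2% (22.8 to 27.8%) of those of NP2, against 2.38% and 5.32% in C12. *Pgr* had one in 34.5% (31.5 to 37.6%) of the cells of NP1 and 32.2% (29.6 to 34.9%) of those of NP2, against 2.18% and 4.26% in C12. The hormone-sensing progenitors of C2 shared this pattern, with *Prlr* in 95.8% and 98.8% of cells. In C2 the shares were 15.8% and 19.5% for *Esr1* and 27.5% and 27.8% for *Pgr*. Nearly every C4 cell therefore had a *Prlr* transcript, while the lower *Esr1* and *Pgr* were seen in a minority at this depth. In cells at full depth the shares were 56.6% and 61.1% for *Esr1* and 74.3% and 66.9% for *Pgr*, so that a cell without a UMI cannot be read as a cell without the receptor. At least 1 of the 3 receptors was counted in 98.7% and 98.9% of C4 cells at 3000 UMIs. Basal *Krt14* was counted in 12.3% and 4.70% of C4 cells and 13.2% and 7.28% of C6 cells, against 98.6% and 98.6% of C12 cells.

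At 3000 UMIs, *Esr1* and *Pgr* transcripts were counted in the same C4 cells about as often as their single shares would give. *Esr1* and *Pgr* were counted together in 8.34% and 8.25% of C4 cells (81 of 971 and 100 of 1212), and the product of their single shares was 7.64% and 8.12%. No interval was set on these differences. *Pgr* was counted in 37.7% and 32.7% of the cells with an *Esr1* UMI and in 33.6% and 32.0% of those without. *Wnt4*, which progesterone induces in this tissue, was counted in 28.4% and 32.6% of the cells with a *Pgr* UMI and in 26.6% and 30.8% of those without. *Areg* was counted in 95.4% and 95.1% of cells with an *Esr1* UMI and in 93.1% and 95.4% of those without. At full depth *Pgr* was counted in 82.5% and 71.4% of the cells with an *Esr1* UMI and in 63.4% and 59.9% of those without, where deeper cells have more of both. Over cells thinned to 5000 UMIs the UMIs of *Esr1* and *Pgr* had r = 0.111 and 0.0616, those of *Esr1* and *Prlr* 0.123 and 0.103 and those of *Pgr* and *Prlr* 0.153 and 0.0836, where the median size over 861 gene pairs was 0.0373 and 0.0339.

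Some genes varied between C4 cells far more than these. Variation was measured in cells thinned to 5000 UMIs (960 and 1173 cells) as the excess squared coefficient of variation, which is 0 when UMIs fall on cells at random. Over 1234 genes with a mean of at least 0.5 UMIs the median excess was 0.0833 and 0.101 in NP1 and NP2, and 35 genes had an excess of at least 1 in both mice. The largest belonged to *Sbp*, with 76.7 and 27.3. It encodes a spermine-binding protein, was counted in 9.79% and 10.5% of cells and reached 159 and 68 UMIs in a single cell. The top hundredth of cells held 70.1% and 45.7% of its UMIs. *Mgp*, the matrix Gla protein, followed with 17.1 and 12.5, and *Defb1*, an antimicrobial defensin, with 8.55 and 7.88. These 3 genes were thus concentrated in few cells of either mouse. Next came *Tnip3*, *Cxcl1*, *Dmbt1*, *Fgb*, *Clca3a2*, *Apoc1*, *Hspa5*, *Fam107b*, *Fxyd2*, *S100a14*, *Fam3c* and *Cyr61*, of which *Cyr61* had 1.78 and 2.39. *Mgp* stood at 102 and 116 CPM in C4 and 334 and 293 CPM in basal cells, and the part of basal transcripts in its variation was not tested.

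**Figure D3:**
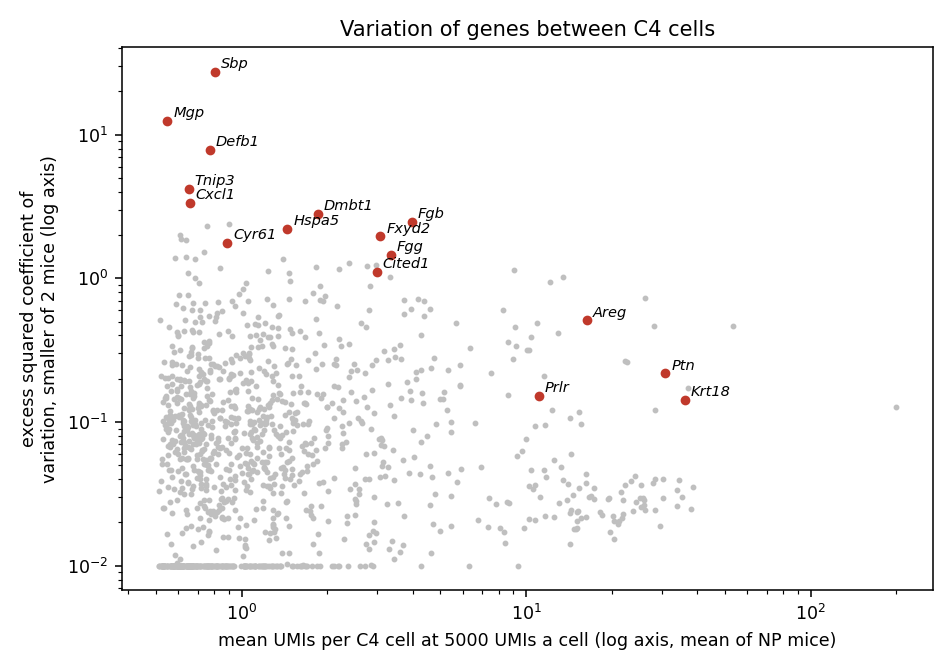
Excess squared coefficient of variation between C4 cells (smaller value of the nulliparous mice) against the mean UMIs per cell, both on log axes, for 1234 genes in cells thinned to 5000 UMIs. Values under 0.01 are drawn at 0.01, and red points are named. Sbp, Mgp and Defb1 stand above the rest, at excess values of 27.3, 12.5 and 7.88, while Prlr lies at 0.15.

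*Fgb* had an excess of 2.47 and 2.66 and was counted in 61.2% and 61.8% of C4 cells at 5000 UMIs. The tenth of cells with the most *Fgb* held 49.5% and 50.8% of its UMIs. For *Prlr* the excess was 0.16 and 0.15, for *Ptn* 0.22 and 0.24, for *Areg* 0.56 and 0.51 and for *Cited1* 1.11 and 1.47. The prolactin receptor thus lay somewhat above the median gene (0.0833 and 0.101), and *Fgb* far above it. Log2(UMIs + 1) was correlated between cells over 42 genes, the 35 with an excess of at least 1 in both mice and further C4 markers. Of their 861 pairs, 4 had a coefficient of at least 0.2 in size in both mice. *Fgb* and *Fgg*, the neighbours on chromosome 3 shown above, had the highest, with r = 0.474 and 0.506 over 960 and 1173 cells. The others were *Bhlhe41* and *Actb* (0.356 and 0.318), *Fxyd2* and *Crip1* (0.220 and 0.351) and *Fam107b* and *Prlr* (-0.209 and -0.207). *Fgb* and *Fxyd2*, which encodes a regulator of the sodium pump, went opposite ways, at -0.223 and -0.196. The coefficients are over cells of 1 mouse each, which share library and dissociation, and have no test.

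**Figure D4:**
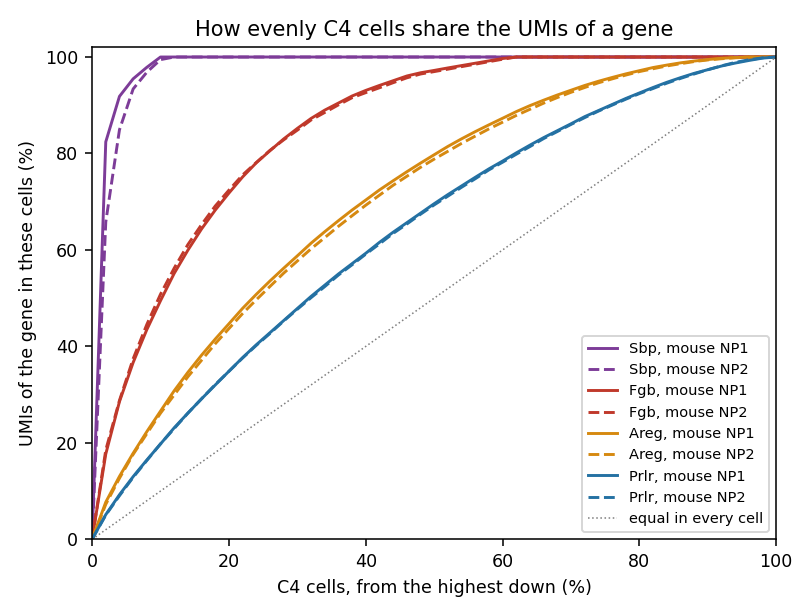
Share of a gene's UMIs (vertical axis, %) held by the C4 cells with the most of it (horizontal axis, % of cells, from the highest down), in cells thinned to 5000 UMIs, with solid lines for NP1 and dashed lines for NP2. The curve of Sbp reaches the top near 10.5% of the cells, that of Fgb stands at 49.5% and 50.8% of UMIs at 10% of the cells, and that of Prlr lies nearest to the dotted line of equal shares.

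C4 was a nulliparous cluster. It held 45.7% (43.5 to 47.8%) of the epithelial cells of NP1 and 61.0% (58.8 to 63.1%) of those of NP2, with exact intervals for counting error. The mice differed beyond that error, and basal cells took 23.7% of the epithelial cells in NP1 and 14.3% in NP2. In the PI mice C4 held 2.78% (1.99 to 3.76%) and 2.13% (1.71 to 2.62%) of the epithelial cells, and in the lactating mouse L2 0.0303%. In G1, G2 and L1 it held 0 of 2565, 2592 and 5034 cells, which allows up to 0.117%, 0.116% and 0.0596% by the floor of 3 counts and up to 0.144%, 0.142% and 0.0733% by the exact two-sided interval. Most differentiated hormone-sensing cells of the PI mice lay in cluster C3 instead, with 412 and 2487 cells, against 12 and 5 in the NP mice. Between these stages cluster and stage therefore cannot be told apart.

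To ask what differed between these cells before a first pregnancy and after one, C3 and C4 were summed together in each mouse, which gave 983 and 1217 cells in the NP mice and 452 and 2575 in the PI mice. C4 made up 971 and 1212 of the NP cells, so the NP side was C4 with few exceptions. No age is given for the PI mice, so age and a past pregnancy cannot be told apart in this comparison. Genes were tested with edgeR's quasi-likelihood test, 2 mice against 2, with Benjamini-Hochberg adjustment over 11994 genes at 0.05. The smallest p that an exact permutation test of 1 gene allows with 2 mice a side is 0.333, and the model passes genes only by pooling their variances. Of all genes tested, 798 (6.65%) were higher in NP and 916 (7.64%) lower. Leaving out 1 mouse at a time gave from 453 higher and 475 lower (without NP2) to 1098 higher and 1360 lower (without PI1, which was in dioestrus and leaves mice in oestrus on both sides). In these fits 1 side holds a single mouse, which is assumed to vary like the mice of the other side.

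**Figure D5:**
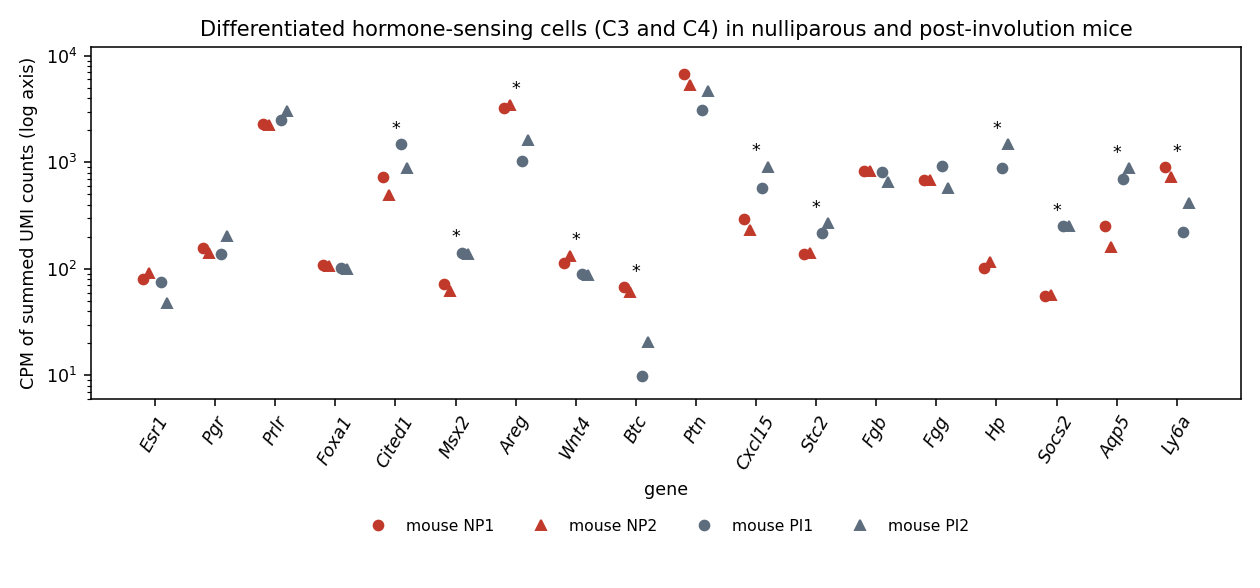
Level of 18 genes in the differentiated hormone-sensing cells (C3 and C4 summed) of mice NP1, NP2, PI1 and PI2, in CPM on a log axis. Asterisks mark genes past the adjusted threshold. The NP points (red) lie above the PI points (grey) for Areg, Wnt4, Btc and Ly6a and below them for Cited1, Msx2, Cxcl15, Stc2, Hp, Socs2 and Aqp5.

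The receptors themselves did not pass the test. *Esr1* stood at 80.4 and 90.8 CPM in the NP mice and 74.5 and 47.3 CPM in the PI mice (log2 difference 0.59 ± 0.19 (SE), adjusted p = 0.057), and the adjusted p was from 0.00082 to 0.29 over the alternatives, the lowest without PI1. *Pgr* stood at 158 and 142 CPM in the NP mice and 138 and 203 CPM in the PI mice (log2 difference -0.15 ± 0.20 (SE), adjusted p = 0.67), and *Prlr* at 2276 and 2227 CPM in the NP mice and 2484 and 3049.6 CPM in the PI mice (log2 difference -0.24 ± 0.22 (SE), adjusted p = 0.5). For *Pgr* the values of the stages overlapped. Of 13 receptors tested, *Nr3c1* alone passed, lower in NP at 13.2 and 12.4 CPM in the NP mice and 24.9 and 17.6 CPM in the PI mice (log2 difference -0.62 ± 0.18 (SE), adjusted p = 0.044), and it did not pass in 6 of 10 alternatives, with adjusted p up to 0.17. The median log2 difference of the 13 was -0.15 beside 0.02 for all genes.

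Among the ligands, 3 of the epidermal growth factor family were higher in NP in every alternative. *Areg* stood at 3218 and 3474 CPM in the NP mice and 1034 and 1624 CPM in the PI mice, which is 2.60-fold higher (log2 difference 1.38 ± 0.26 (SE), adjusted p = 0.0055). *Btc* stood at 67.0 and 60.2 CPM in the NP mice and 9.86 and 20.5 CPM in the PI mice (log2 difference 1.97 ± 0.25 (SE), adjusted p = 4.3e-04). *Nrg4*, a ligand of ErbB4, stood at 24.7 and 42.7 CPM in the NP mice and 3.01 and 8.34 CPM in the PI mice (log2 difference 2.36 ± 0.35 (SE), adjusted p = 0.0013). The NP values of the 3 lay above all PI values. *Wnt4* (114 and 133 CPM in the NP mice and 89.6 and 87.1 CPM in the PI mice, log2 difference 0.54 ± 0.16 (SE), adjusted p = 0.041), *Wnt5b* and *Wnt7b* were higher in NP as well, but *Wnt4* lost its call without NP2 (adjusted p = 0.41), without PI1 (0.051) and in 2 other alternatives. *Tnfsf11* stood at 2.58 and 1.65 CPM in the NP mice and 0 and 0.0623 CPM in the PI mice and passed the test (adjusted p = 0.0016 in edgeR's test) with PI values under 3 UMIs. *Cxcl15* went the other way, at 291 and 232 CPM in the NP mice and 579 and 911 CPM in the PI mice (log2 difference -1.47 ± 0.24 (SE), adjusted p = 0.002), and so did *Stc2*, *Vegfa* and *Mdk*. In all, 7 of 29 ligands tested were higher and 4 lower in NP, with a median log2 difference of 0.23. *Ptn* did not pass, at 6698 and 5280.4 CPM in the NP mice and 3105 and 4671 CPM in the PI mice (log2 difference 0.67 ± 0.27 (SE), adjusted p = 0.13), and passed in 4 alternatives, among them without PI2 (adjusted p = 0.030).

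Factors of the lineage changed in both directions. *Msx2* stood at 72.4 and 62.6 CPM in the NP mice and 142 and 138 CPM in the PI mice (log2 difference -1.0 ± 0.15 (SE), adjusted p = 0.0011), and *Cited1* at 728 and 498 CPM in the NP mice and 1488 and 876 CPM in the PI mice (log2 difference -0.88 ± 0.24 (SE), adjusted p = 0.032). *Cited1* lost its call without NP2 (adjusted p = 0.14) and without PI1 (0.10). *Tox2* stood at 67.2 and 70.5 CPM in the NP mice and 20.5 and 28.5 CPM in the PI mice (log2 difference 1.49 ± 0.18 (SE), adjusted p = 3.9e-04). Of 21 factors tested, *Tox2*, *Bhlhe41*, *Tfap2c* and *Hes1* were higher and *Cited1*, *Msx1*, *Msx2* and *Trps1* lower in NP, with a median of 0.14. Among 16 receptor partners *Greb1* was higher and *Cited1* and *Pgrmc1* lower (median 0.13), and among 18 target genes *Greb1*, *Areg*, *Wnt4* and *Tnfsf11* were higher and *Stc2*, *Ccnd1* and *Irs1* lower (median 0.20). *Foxa1* did not pass, at 108 and 106 CPM in the NP mice and 102 and 101 CPM in the PI mice.

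*Socs2*, *Hp*, transport genes and milk protein genes were lower in NP than in PI. *Socs2*, which the prolactin pathway induces, stood at 56.1 and 57.2 CPM in the NP mice and 251 and 251 CPM in the PI mice (log2 difference -2.09 ± 0.15 (SE), adjusted p = 1.2e-05). *Hp* stood at 101 and 117 CPM in the NP mice and 879 and 1485 CPM in the PI mice (log2 difference -3.39 ± 0.28 (SE), adjusted p = 2.1e-05), while its companions in C4, *Fgb* (822 and 821 CPM in the NP mice and 818 and 652 CPM in the PI mice, adjusted p = 0.44 in edgeR's test) and *Fgg*, did not pass. Among channels *Aqp5* stood at 250.1 and 160.0 CPM in the NP mice and 700.5 and 882 CPM in the PI mice (log2 difference -1.91 ± 0.23 (SE), adjusted p = 3.0e-04), and *Aqp3*, *Scnn1b*, *Scnn1g* and *Atp1b1* were lower in NP too, 5 of 11 tested and none higher (median -0.50). All 4 milk protein genes tested were lower, with *Csn1s1* at 0.470 and 0.412 CPM in the NP mice and 27.7 and 43.5 CPM in the PI mice (log2 difference -6.31 ± 0.35 (SE), adjusted p = 2.1e-06) and a median of -3.87. In luminal progenitors (C6 in NP, C7 in PI) *Csn1s1* stood at 11.8 and 7.46 CPM and at 4939 and 5908 CPM, and the part of free transcripts from these cells in the C3 and C4 level was not tested. Of 12 genes of the prolactin pathway, *Ptpn2* was higher and *Socs2* lower (median -0.09), and of 7 acute-phase genes *Cp* and *C3* were higher and *Hp* and *Ltf* lower (median 0.12).

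The genes with the largest rise in NP, among genes that reached 20 CPM in either group and whose NP and PI values did not overlap, included *Gm17416*, *Sbp*, *Aldh1a3*, *Fermt1*, *Nme2*, *R3hdml*, *Wfdc18*, *Acta2* and *Nrg4*. *Gm17416* stood at 99.5 and 53.8 CPM in the NP mice and had no UMI in either PI mouse, which makes it at least 65.5-fold higher when 3 UMIs are set in each PI library. *Sbp*, concentrated in few C4 cells as described, stood at 161 and 168 CPM in the NP mice and 0 and 3.24 CPM in the PI mice (log2 difference 6.09 ± 0.40 (SE), adjusted p = 3.9e-06). The PI values of both lay far under the NP values. In luminal progenitors, 8 of the 10 genes with the largest rise were also higher in NP (C6) than in PI (C7). Of the others, 1 was lower and 1 overlapped.

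The 10 genes with the largest fall were *Csn1s1*, *Bglap3*, *Aoc1*, *Emb*, *Tmprss6*, *Pcp4*, *Hepacam2*, *Wfdc12*, *Epb41l3* and *Sv2c*. *Tmprss6*, a membrane serine protease of iron metabolism, stood at 3.84 and 3.99 CPM in the NP mice and 112 and 104 CPM in the PI mice (log2 difference -4.72 ± 0.17 (SE), adjusted p = 9.3e-08). *Bglap3*, a gene of the osteocalcin cluster whose reads may be shared with its near-identical neighbours, stood at 2.35 and 1.79 CPM in the NP mice and 114 and 161 CPM in the PI mice (log2 difference -6.02 ± 0.26 (SE), adjusted p = 2.9e-07). *Sv2c*, a synaptic vesicle protein, stood at 3.76 and 3.02 CPM in the NP mice and 51.2 and 35.7 CPM in the PI mice (log2 difference -3.58 ± 0.21 (SE), adjusted p = 2.3e-06). *Ido1*, one of the C4 genes, was lower in NP than in PI, at 165 and 97.3 CPM in the NP mice and 302 and 856 CPM in the PI mice (log2 difference -2.13 ± 0.40 (SE), adjusted p = 0.0052), and lost its call with DESeq2 (adjusted p = 0.067). *Upk3a* did not pass (log2 difference 0.46 ± 0.21 (SE), adjusted p = 0.16).

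Basal genes differed between the stages in these luminal cells. Of 14 tested, 10 were higher in NP and none lower, with a median log2 difference of 1.61. *Krt14* stood at 46.1 and 16.5 CPM in the NP mice and 8.22 and 11.1 CPM in the PI mice (log2 difference 1.63 ± 0.37 (SE), adjusted p = 0.014), and lost its call without NP1 (adjusted p = 0.086) and with DESeq2 (0.13). The summed level of the 15 listed was 270.1 and 146 CPM in C4 of the NP mice and 36.9 and 55.7 CPM in C3 of the PI mice. Basal cells (C12 to C15) made up 23.7% and 14.3% of the epithelial cells in NP and 2.08% and 1.43% in PI, and their part in the result was not tested. The progenitor list had 6 genes higher and 3 lower of 16 (median 0.42), with *Aldh1a3* at 39.2 and 15 CPM in the NP mice and 0.548 and 1.37 CPM in the PI mice. *Aldh1a3* also stood higher in luminal progenitors of NP (C6, 2035 and 1759 CPM) than in those of PI (C7, 396 and 287 CPM). The part of free transcripts from these cells in the C3 and C4 level was not tested. Surface markers had *Ly6a* and *Ly6d* higher and *Prom1* and *Cd55* lower of 12 (median 0.01), with *Prom1* at 83.0 and 69.9 CPM in the NP mice and 250.4 and 238 CPM in the PI mice (log2 difference -1.62 ± 0.15 (SE), adjusted p = 5.6e-05).

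In the remaining lists the counts in NP against PI were 0 higher and 0 lower of 4 for luminal keratins (median -0.36), 2 higher and 2 lower of 17 for immediate early and heat shock genes (median -0.13), 2 higher and 0 lower of 12 for cell division (median 0.86), 3 higher and 0 lower of 11 for cell cycle inhibitors (median 0.18), 0 higher and 1 lower of 10 for growth factor receptors (median 0.28). Further counts were 2 higher and 0 lower of 12 for Wnt and Notch genes (median 0.02), 3 higher and 1 lower of 10 for steroid and retinoid genes (median -0.12), 1 higher and 1 lower of 7 for S100 and calcium genes (median -0.07), 1 higher and 1 lower of 11 for junction genes (median 0.17). Markers of other cells gave 0 higher and 1 lower of 5 for immune cells (median -0.32), 1 higher and 0 lower of 6 for fibroblasts (median 1.38), 1 higher and 0 lower of 1 for endothelium (median 1.12), 0 higher and 0 lower of 3 for pericytes (median 0.15). Their summed level in C4 of the NP mice and C3 of the PI mice lay between 3.60 and 30.9 CPM for the immune, fibroblast and endothelial lists. Over all genes tested, 6.65% were higher and 7.64% lower in NP, and the list counts of this paragraph are to be read beside these shares. Of the division genes *Aurka* and *Ube2c* were higher in NP, with *Aurka*, a mitotic kinase, at 15.3 and 18.6 CPM in the NP mice and 11.0 and 7.41 CPM in the PI mice (log2 difference 1.04 ± 0.22 (SE), adjusted p = 0.0092).

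Of the named genes past the test, the call was lost without NP1 for *Cp*, *Elf5*, *Irs1*, *Krt14*, *Nr3c1*, *Pgrmc1*, *Scnn1g*, *Stc2*, *Tagln*, *Tfap2c*, *Trps1*, *Tspan8* and *Wnt5b* (adjusted p up to 0.4). Without NP2 it was lost for *Aurka*, *Bhlhe41*, *Cd55*, *Cited1*, *Elf5*, *Greb1*, *Hes1*, *Irs1*, *Nr3c1*, *Pgrmc1*, *Trps1*, *Ube2c*, *Vim*, *Wnt4* and *Wnt7b* (adjusted p up to 0.55). Without PI1 it was lost for *Cited1*, *Ly6d*, *Nr3c1*, *Pgrmc1*, *Scnn1g* and *Wnt4* (adjusted p up to 0.1), and without PI2 for *Cp*, *Elf5*, *Greb1*, *Irs1*, *Trps1* and *Tspan8* (adjusted p up to 0.26).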

How the data were processed

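Sorted mammary cells of 8 mice were profiled by droplet-based single-cell RNA sequencing, with 1 library per mouse. The authors ran Cell Ranger without depth normalisation, the submitters' processing notes name STAR and mm10, and the deposited matrices hold raw UMI counts per gene and cell. The authors' annotation gives each cell its cluster, its quality flag and the mitochondrial fraction of its counts. The authors excluded a cluster as doublets, and no doublet caller was run here. Cells were joined to the matrices by library and barcode. Counts were summed per cluster and mouse, scaled to CPM and compared within mice without a test, with a level filter of 50 CPM. Alternative filters were 10 and 100 CPM. To compare single cells, counts were thinned at random to 3000 or 5000 UMIs a cell.

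Stages were compared on summed counts with edgeR 4.0.16 in R 4.3.3 (TMM, filterByExpr, quasi-likelihood test, two-sided, Benjamini-Hochberg), with DESeq2 1.42.0 as an alternative. Each mouse is 1 replicate. Tested on simulated data for the comparison of NP with PI over 11969 genes, the test recovered 73.7% of 99 genes changed 2-fold and 99% of 99 changed 4-fold, with 6 false calls. Every simulated gene was given the same dispersion, which favours the pooling of variances. These rates therefore do not cover genes that differ in their spread between mice. Other steps used Python 3.11.15 with numpy 2.4.6, scipy 1.17.1 and pandas 2.3.3. Intervals (95%, exact Clopper-Pearson for shares) and floors (3 counts) cover counting error only. No column of per-sample values was left unmapped.

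Named genes were the 10 with the largest ratio in each direction against C6 and C12 and the 15 with the largest ratio over the nearest cluster. In the stage comparison they were the 10 with the largest rise and fall past the test, with 20 CPM in 1 group and no overlap. Further named genes were the 15 most variable, the 5 most like each of 4 markers and members of 25 gene lists. A few genes that the rule names are not reported here. The members, lists and tests were chosen with earlier results of these data known.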

Additional observations from a re-analysis of the deposited data

How the results depend on the processing

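The counts of genes called between clusters followed the level filter. At 10 CPM 911 genes were higher and 987 lower in C4 than in C6, and 1166 higher and 1661 lower than in C12. At 100 CPM these counts were 181, 259, 247 and 419. The 2 genes higher than in C2, C6 and C12 became 0 at 100 CPM, 4 with TMM scaling, 4 in thinned cells, 4 without high-UMI cells, and 5 to 6 with 1 mouse left out. DESeq2 called 478 genes higher and 735 lower in NP than in PI. Leaving out 1 mouse at a time gave 453 to 1098 genes higher and 475 to 1360 lower in NP. For single genes the log2 difference of *Pgr* went from -0.45 to 0.24 with 1 mouse left out and so reversed without PI2, where it did not pass the test either. Of 82 genes followed through the alternatives, 75 passed the test, 49 of them under every alternative, while 26 lost the call under at least 1. The count of variable genes was 19 in cells thinned to 3000 UMIs and 46 to 51 in 1 mouse alone, an alternative chosen after seeing the data. The share of cells with a UMI, averaged over the NP mice, rose with depth to 33.6% at 5000 UMIs and 58.9% unthinned for *Esr1*, to 47.5% and 70.6% for *Pgr*, and to 99.7% and 99.96% for *Prlr*. Of luminal cells only, C4 made up 59.8% in NP1 and 71.1% in NP2. The cause of these differences was not tested beyond what fewer mice, genes or UMIs bring by construction.

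For mice of the same number in NP and PI, the correlation of their deviations from the group means was 0.0099 over 11994 genes. This value compares only the difference between the NP mice with that between the PI mice, and the PI mice also differed in cycle phase. It therefore cannot decide whether mice of the same number share more than the number. With the number as a replicate block 1016 genes were higher and 1042 lower in NP, and 1683 of the 1714 genes called without it were called again. A range of depths limits the single-cell shares, since a cell with no UMI of a gene may still express it.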
